A study of Homo sapiens with 4 samples.

Results

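The genes described here carry out protein folding in the endoplasmic reticulum (ER), remove proteins that fail to fold by ER-associated degradation (ERAD), or sense the load of unfolded protein. They were 32 genes named by symbol, and all 32 were matched to 1 Ensembl identifier each among the 60617 gene entries of the table. By role they are 4 sensor and transcription factor genes, 9 genes of the BiP chaperone system, 2 lectin chaperone genes, 5 genes of disulfide bond formation and 12 ERAD genes. They were measured by RNA-seq in SKNMC, an established human Ewing sarcoma cell line, after 24 h with 1 µM CBL0137 (n = 2 libraries) or with DMSO, its solvent (n = 2). CBL0137 belongs to the curaxins, DNA-binding compounds under which the histone chaperone FACT becomes trapped in chromatin. Both groups are the same line in the same serum-supplemented medium, so the results concern 1 line, 1 dose and 1 time. Whether replicate libraries are separate cultures is not stated, so p-values measure only the spread between these libraries, which may be technical.

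When unfolded protein builds up in the ER lumen, the chaperone BiP is drawn away from 3 membrane sensors, IRE1, ATF6 and PERK. IRE1 splices the XBP1 mRNA, ATF6 is cut in the Golgi to free a transcription factor, and PERK lowers translation and favours ATF4. XBP1 and ATF6 then raise the transcription of chaperone, disulfide isomerase and ERAD genes, many through an ER stress response element in the promoter. Counts per gene do not separate the spliced from the unspliced XBP1 transcript.

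The libraries held 20086664 and 19625517 reads assigned to genes with DMSO and 20767817 and 21061892 with CBL0137. The 32 genes took 0.610% (95% Wilson interval 0.607 to 0.613) and 0.543% (0.540 to 0.546) of these reads in DMSO replicates 1 and 2. They took 0.669% (0.665 to 0.672) and 0.677% (0.674 to 0.681) in CBL0137 replicates 1 and 2. The intervals cover counting error only. These shares rest on library size alone. With the TMM scaling used for all other levels the 32 genes summed to 6477 and 5725 CPM (counts scaled to the same depth in each library) with DMSO and to 6321 and 6442 CPM with CBL0137, and the groups overlapped. All 8 Ewing sarcoma markers looked up were detected in every library, with a summed level of 3138 and 3145 CPM with DMSO and 1386 and 1497 with CBL0137. Most of that gap lay in CAV1 (1193 and 1203, then 254 and 275 CPM) and CCND1 (1158 and 1144, then 527 and 574 CPM). CD99 (-0.69 on the log2 scale) and NR0B1 (-0.67) were called lower too. STEAP1 (-0.24), FLI1 (0.02), NPY1R (-0.02) and NKX2-2 (0.23) had smaller log2 fold changes and were not called. Of markers of other cell types, 4 of 5 fibroblast genes were also clearly present, with sums of 939 to 947 and 1225 to 1232 CPM. Within that list COL1A1 went from 127 and 119 to 471 and 441 CPM, while LUM was called lower (-0.79), DCN was at -0.52 and COL1A2 at 0.03 on the log2 scale. The epithelial list stood at 48.4 to 49.7 and 106 to 107 CPM, nearly all KRT18, and the immune list at 162 and 107 to 124 CPM, nearly all PTPRC. CD3E, CD68, CDH1, KRT5 and CPA1 had a count of 0 in both DMSO libraries, although CD68 has a deposited FPKM of 0.754 and 0.718 there. The list of plasma and other secretory cells stood at 0.846 to 1.40 and 7.86 to 10.01 CPM, mostly SDC1. The endothelial list stood at 1.83 to 1.85 and 2.91 to 3.57 CPM, mostly CDH5. Called higher were COL1A1 (1.89 on the log2 scale), KRT18 (1.09), SDC1 (3.19), PDGFRA (2.07), EPCAM (1.42) and CDH5 (1.05). Mean levels were low for PDGFRA (0.372, then 1.59 CPM), EPCAM (2.85, then 7.62 CPM) and CDH5 (1.52, then 3.15 CPM). The part of these genes in the results was not tested.

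The ER genes did not move as a block. Of the 31 that could be tested, 6 fell, 2 rose and 23 were not called, where a call needs a Benjamini-Hochberg adjusted p under 0.05 over all 17374 tested genes and a fold above 1.5 (edgeR quasi-likelihood test). The background over all tested genes was 15.1% lower and 18.2% higher, 33.4% in all. In bulk RNA, fewer cells with a transcript and less of it per cell cannot be told apart. The genes that fell were HERPUD1, SEL1L, ERN1, HSPA5, HYOU1 and DNAJC3, and those that rose were OS9 and ERO1B. The median log2 fold change was 0.04 over the 31 genes and 0.01 over all tested genes. An adjusted p under 0.05 at any fold was reached by 11 genes in each direction, against 30.9% (lower) and 30.8% (higher) of all tested genes. Both CBL0137 libraries lay below both DMSO libraries in 13 genes and above them in 13, against 39.2% and 40.7% of all tested genes. The counts depend on scaling: with library size alone, which moves the median of all genes up by 0.16 on the log2 scale, 3 members were called lower and 4 higher, while over all genes 1877 were lower and 4138 higher in place of 2632 and 3166. With the deposited FPKM values 2 were called lower and 3 higher. Over all 14451 genes in the log2(FPKM + 1) fit, 1518 were lower and 1918 higher. HERPUD1, SEL1L, OS9 and ERO1B kept their calls at the 1.5-fold limit under all 13 alternatives of scaling, test, filter, unit, pairing and left-out library. All members but DERL3 passed the filter on low counts.

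**Figure D1:**
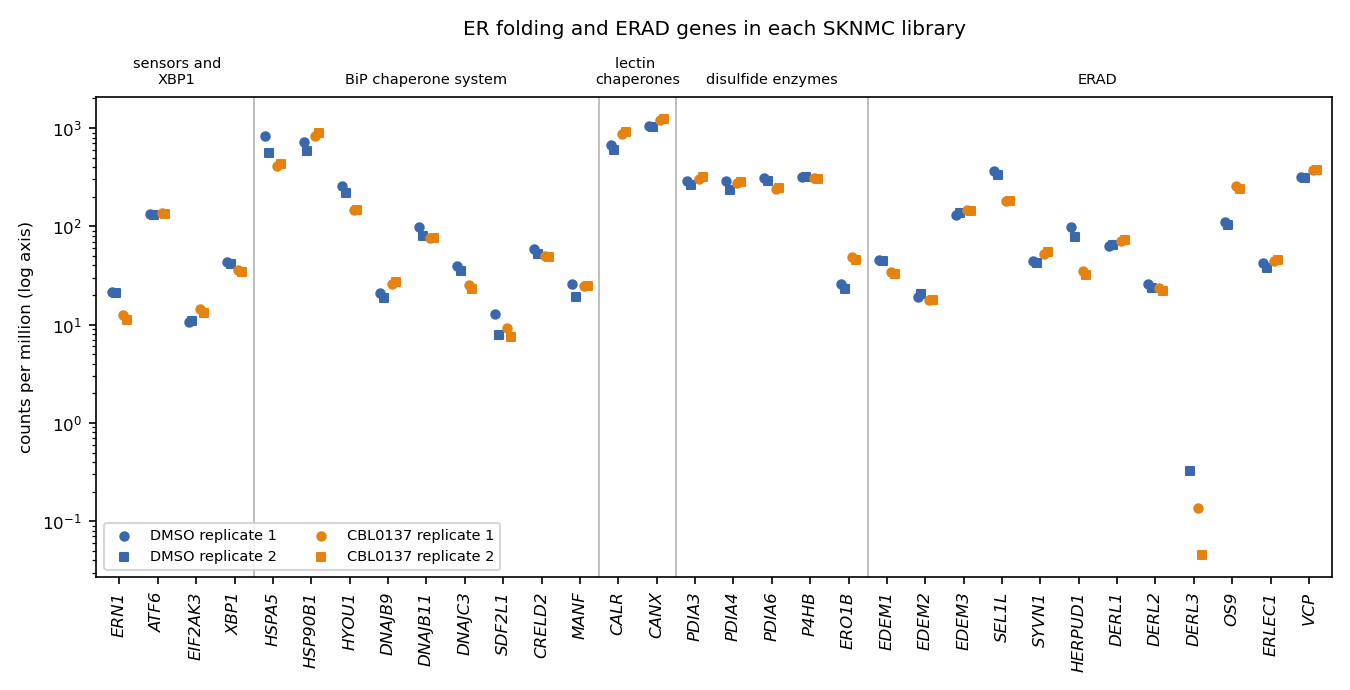
Level of each of the 32 ER genes in each library, in CPM on a log axis, grouped by role; circles are replicate 1 and squares replicate 2, blue for DMSO and orange for CBL0137. DERL3 stands far below the others, and its DMSO replicate 1 value of 0 is not drawn.

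**Figure D2:**
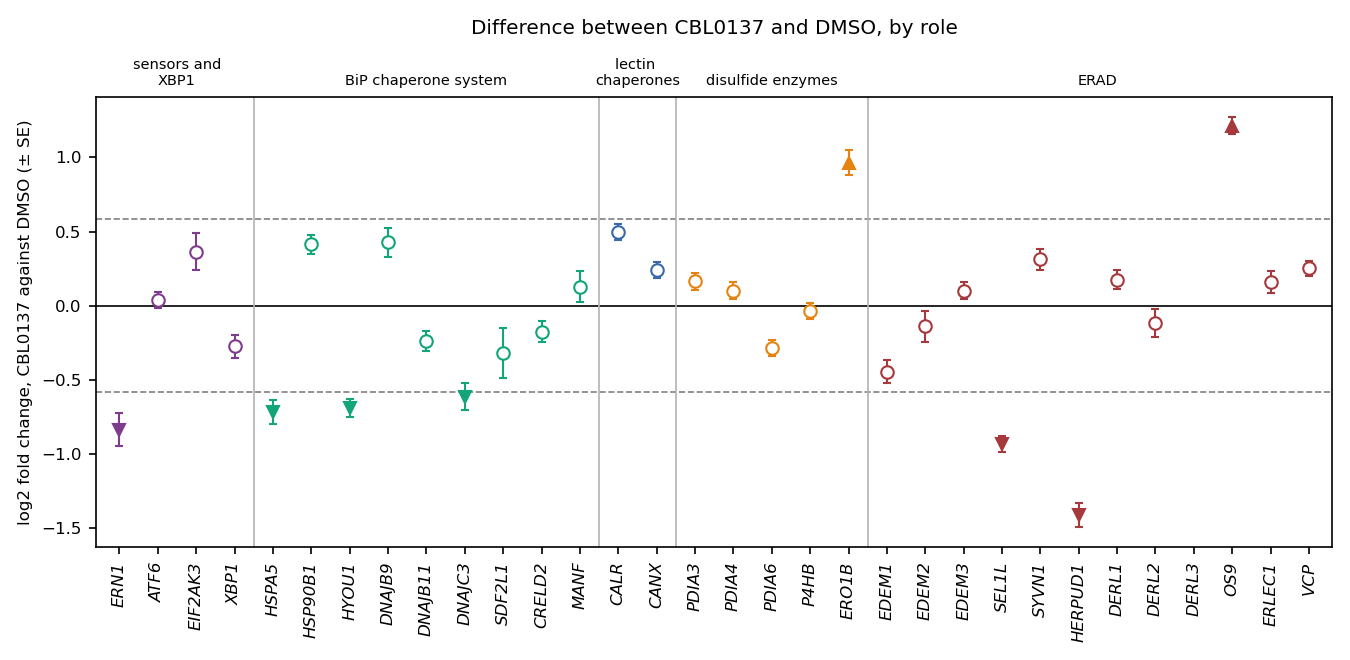
Log2 fold change of CBL0137 against DMSO with its SE for the 31 tested genes, by role. Filled triangles are called genes (6 lower, 2 higher), open circles are not called, and dashed lines mark a fold of 1.5; called and uncalled genes stand side by side within most roles.

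Levels per length can be compared between genes with the deposited FPKM (fragments scaled by gene length and sequencing depth). CALR was the most abundant of the 32, at 280 and 258 FPKM with DMSO and 391 and 423 with CBL0137. HSP90B1 followed with 249 and 205, then 311 and 333 FPKM. CANX came next with DMSO, at 145 and 147 FPKM, above PDIA6 (137 and 129.6) and P4HB (129 and 129). HSPA5, at 139 and 94.6 FPKM, had libraries on both sides of PDIA6 and P4HB, so its place in the order is not settled by 2 libraries. At the low end stood ERO1B (3.54 and 3.07 FPKM with DMSO), EIF2AK3 (2.50 and 2.44), ERN1 (1.96 and 2.16) and, lowest of all, DERL3 (0 and 0.0465). OS9 moved from rank 12 to rank 6 by mean FPKM, and HERPUD1 from rank 15 to rank 22.

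The ER stress response element is a pair of half-sites bound by the CCAAT factor NF-Y and by ATF6. Its 2 forms were searched for on both strands of a window from 250 bases before to 50 bases after the RefSeq start of each gene: ERSE as CCAAT and CCACG with 9 bases of any kind between them, and ERSE-II as ATTGG and CCACG with 1 base between them. Windows were found for 29 members. ERSE was present in 7 of them (XBP1, HSPA5, HSP90B1, CRELD2, CALR, CANX and ERO1B) and ERSE-II in 3 others (HYOU1, SDF2L1 and HERPUD1). Of all 35116 windows 0.0769% held ERSE and 0.0541% held ERSE-II. The 10 members with either form make up 34.5% of the 29, against 0.131% of all windows, which include those of the members. The members were picked as genes of the response that acts through this element. The excess was thus built into the choice and is not a result of these data. A match is a description of the letters and does not show that a factor is bound. Other spellings of the element were not searched.

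The windows of 6 of these genes are shown because genes that carry an ER stress response element differed in their values. HERPUD1, HSPA5 and HYOU1 had the lowest log2 fold changes of the 10 genes, and CRELD2, CANX and XBP1 the values nearest to 0. The sequences are from RefSeq (GRCh38.p14) and were placed on GRCh37, the build of the counts, by an exact match of all 300 bases. They run 5′ to 3′ on the strand of the gene, and capitals mark the fixed bases of ERSE or ERSE-II, in either orientation. The positions are chr16:56965804-56966103, plus strand (HERPUD1), chr9:128003573-128003872, minus strand (HSPA5), chr11:118927867-118928166, minus strand (HYOU1), chr22:50312032-50312331, plus strand (CRELD2), chr5:179125680-179125979, plus strand (CANX) and chr22:29196508-29196807, minus strand (XBP1).
HERPUD1: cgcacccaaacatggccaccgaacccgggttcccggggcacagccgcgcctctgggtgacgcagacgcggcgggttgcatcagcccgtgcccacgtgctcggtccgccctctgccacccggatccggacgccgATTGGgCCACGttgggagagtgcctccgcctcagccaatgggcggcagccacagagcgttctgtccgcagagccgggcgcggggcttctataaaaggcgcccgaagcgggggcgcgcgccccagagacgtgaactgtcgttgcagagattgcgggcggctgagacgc
HSPA5: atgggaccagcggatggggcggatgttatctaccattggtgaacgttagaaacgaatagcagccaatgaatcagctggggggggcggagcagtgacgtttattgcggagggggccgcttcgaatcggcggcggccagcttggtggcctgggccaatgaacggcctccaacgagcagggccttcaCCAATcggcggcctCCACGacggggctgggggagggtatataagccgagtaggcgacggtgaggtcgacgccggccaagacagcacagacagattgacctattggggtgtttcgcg
HYOU1: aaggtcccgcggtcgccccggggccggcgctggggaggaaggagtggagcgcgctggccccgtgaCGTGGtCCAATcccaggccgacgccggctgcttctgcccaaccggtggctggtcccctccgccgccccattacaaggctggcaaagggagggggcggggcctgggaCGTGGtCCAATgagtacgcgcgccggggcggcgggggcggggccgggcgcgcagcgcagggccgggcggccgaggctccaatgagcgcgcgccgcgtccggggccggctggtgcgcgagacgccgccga
CRELD2: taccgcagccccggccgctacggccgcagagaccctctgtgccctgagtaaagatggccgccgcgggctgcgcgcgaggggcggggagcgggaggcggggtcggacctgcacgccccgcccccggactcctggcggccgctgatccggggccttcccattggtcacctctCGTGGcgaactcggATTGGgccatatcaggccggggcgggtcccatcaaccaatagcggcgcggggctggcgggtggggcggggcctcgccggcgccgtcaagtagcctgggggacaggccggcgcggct
CANX: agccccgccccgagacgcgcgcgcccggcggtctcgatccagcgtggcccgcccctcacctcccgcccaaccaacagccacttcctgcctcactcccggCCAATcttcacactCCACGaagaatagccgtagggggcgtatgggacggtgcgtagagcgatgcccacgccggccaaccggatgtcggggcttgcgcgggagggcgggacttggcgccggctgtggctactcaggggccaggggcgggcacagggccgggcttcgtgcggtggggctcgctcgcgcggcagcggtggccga
XBP1: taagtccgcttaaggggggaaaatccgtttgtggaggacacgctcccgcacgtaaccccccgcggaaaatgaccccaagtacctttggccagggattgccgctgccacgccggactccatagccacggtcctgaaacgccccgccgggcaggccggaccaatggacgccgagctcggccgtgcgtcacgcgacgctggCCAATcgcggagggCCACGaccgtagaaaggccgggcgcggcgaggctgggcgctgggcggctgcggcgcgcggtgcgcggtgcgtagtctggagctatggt

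In HSPA5 the element spans bases 66 to 48 before the start, and in XBP1 bases 52 to 34. HYOU1 holds ERSE-II at 2 places, 185 to 175 and 79 to 69 bases before the start, both on the opposite strand. HERPUD1 holds it 117 to 107 bases before the start, and its window is the only one of the 29 that also held TGATGNAA, a form of the element that ATF4 binds, 176 to 169 bases before the start on the opposite strand. That element was in 3.62% of all windows. TGACGTG, the core of the element named after the unfolded protein response, was in the windows of HYOU1, where it overlaps the farther ERSE-II, and of VCP, and in 1.97% of all windows.

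The 7 genes with ERSE did not share a direction. Of these 7, HSPA5 fell, ERO1B rose and 5 were not called. Their log2 fold changes ran from -0.72 to 0.97 with a median of 0.24. Of the 3 with ERSE-II, HERPUD1 and HYOU1 fell and SDF2L1 was not called, and all 3 values were below 0. SDF2L1 had overlapping groups (-0.32, SE 0.17, edgeR adjusted p = 0.094) and stood at 0.07 without DMSO replicate 1. Of the 19 with neither, 3 fell, 1 rose and 15 were not called, with a median of 0.04. As background, 15.1% of the 17374 genes in the test fell, 18.2% rose and 8545 had a value below 0. Whether genes with and without an element differ was not tested.

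**Figure D3:**
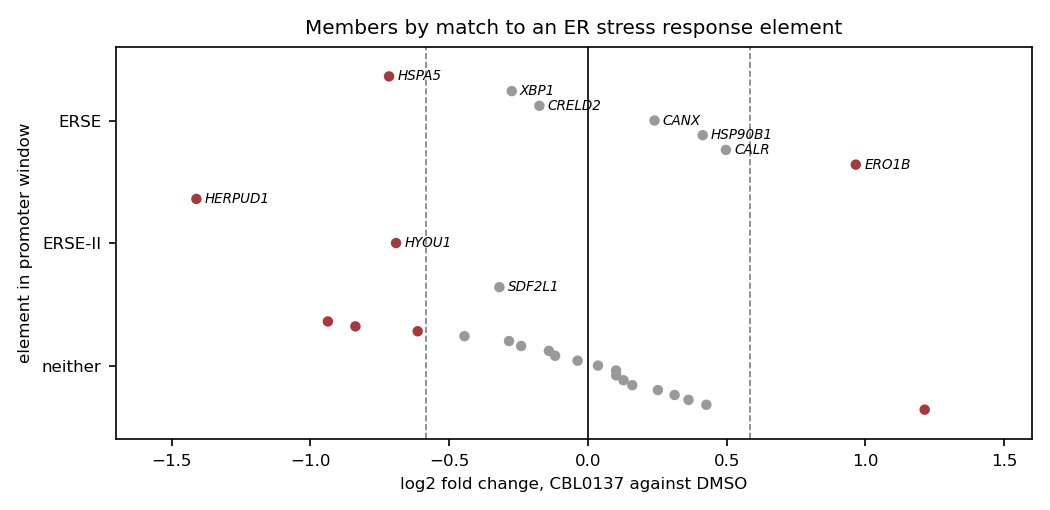
Log2 fold change of CBL0137 against DMSO for the 29 members with a promoter window, split by the element found (ERSE, ERSE-II or neither; vertical spread within a class only separates the points). Red points are called genes and dashed lines mark a fold of 1.5; the 7 ERSE genes lie on both sides of 0, and the 3 ERSE-II genes lie below it.

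Among the 4 sensor and transcription factor genes, ERN1 fell (25.0%, against 15.1% of all tested genes) and the other 3 were not called. ERN1 encodes IRE1, the kinase and ribonuclease that splices XBP1 (ENSG00000178607, chromosome 17, 62116440 to 62208179, minus strand; GRCh37). It stood at 21.3 and 20.9 CPM with DMSO and 12.5 and 11.1 with CBL0137. Both treated libraries lay below both vehicle libraries, with a log2 difference of -0.84 (SE 0.11, edgeR adjusted p = 1.8e-08). It was not called with FPKM, at -0.44 on the log2(FPKM + 1) scale, where the added 1 weighs on so low a level, or at -0.67 with log2(FPKM + 0.1), past the fold limit but not the limit on p.

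XBP1, the target of that splicing, stood at 43.0 and 41.4 CPM with DMSO and 35.7 and 34.1 with CBL0137, a log2 difference of -0.27 (SE 0.08, edgeR adjusted p = 0.0022) that stays under the fold limit. EIF2AK3, which encodes PERK, stood at 10.6 and 10.96 and then 14.6 and 13.2 CPM (log2 fold change 0.36, SE 0.13, edgeR adjusted p = 0.011). ATF6 stood at 135 and 130 and then 137 and 134 CPM, so its groups overlapped (0.04, SE 0.05, edgeR adjusted p = 0.59). Of the sensor genes, only ERN1 passed both limits, which 33.4% of all tested genes passed. The differences between the sensors were not tested.

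BiP, the HSP70 chaperone of the ER lumen encoded by HSPA5, works with J-domain proteins that hand it substrates and with a nucleotide exchange factor, HYOU1. Of the 9 genes of this system 3 fell (33.3%, against 15.1% of all tested genes) and 6 were not called. HSPA5 (ENSG00000044574, chromosome 9, 127997132 to 128003661, minus strand) stood at 828 and 557 CPM with DMSO and 411 and 432 with CBL0137, which gave -0.72 on the log2 scale (SE 0.08, edgeR adjusted p = 5.2e-10). The treated libraries were alike and below both vehicle libraries, which themselves differed by 1.49 times. HYOU1 (ENSG00000149428, chromosome 11, 118914899 to 118927938, minus strand) stood at 255 and 220 and then 147 and 147 CPM (-0.69, SE 0.06, edgeR adjusted p = 9.8e-14).

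DNAJC3 (ENSG00000102580, chromosome 13, 96329393 to 96447242, plus strand), a J-domain cochaperone that also inhibits PERK, stood at 39.4 and 34.9 and then 25.4 and 23.2 CPM, a difference of -0.61 on the log2 scale (SE 0.09, edgeR adjusted p = 8.6e-08). These 3 falls lie close to the fold limit and depend on it. With library size alone HSPA5 was at -0.56, HYOU1 at -0.53 and DNAJC3 at -0.45, and with log2(FPKM + 1) they were at -0.57, -0.52 and -0.39, none of them called. Upper-quartile factors ended the call of DNAJC3 alone (-0.55), and so did leaving out CBL0137 replicate 2 (-0.55).

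The other members of the system had smaller values of both signs. HSP90B1, the HSP90 chaperone of the ER lumen, stood at 718 and 581 CPM with DMSO and 835 and 895 with CBL0137, both treated libraries above both vehicle libraries (log2 fold change 0.41, SE 0.06, under the fold limit). DNAJB9, a J-domain protein that restrains IRE1, was at 20.9 and 18.5 and then 25.8 and 27.2 CPM (0.43, SE 0.10), and it was called higher, at 0.59, with library size alone. DNAJB11, a J-domain protein of the lumen, was at -0.24 (SE 0.07), and CRELD2, a secreted protein of the same stress programme, at -0.17 (SE 0.07). SDF2L1, a partner of DNAJB11, stood at 12.9 and 7.84 and then 9.15 and 7.50 CPM with overlapping groups (-0.32, SE 0.17). MANF, a secreted BiP cofactor, overlapped too (0.13, SE 0.11).

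Ratios between chaperones of the lumen differed between the groups. The FPKM ratio of HSP90B1 to HSPA5 within a library, which no scaling between libraries can change, was 1.79 and 2.17 with DMSO and 4.15 and 4.22 with CBL0137. The ratio of CALR to HSPA5 was 2.01 and 2.73 and then 5.22 and 5.36. These pairs, and those of ERAD genes below, were chosen after the values were seen. A ratio shows unequal change and not which gene changed.

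The lectin chaperones CALR (calreticulin) and CANX (calnexin) hold glycoproteins through a monoglucosylated glycan until they fold. Neither was called. CALR stood at 665 and 605 CPM with DMSO and 877 and 915 with CBL0137, a log2 difference of 0.50 (SE 0.05, edgeR adjusted p = 1.5e-10) below the fold limit. It was called higher with library size alone (0.66) and with log2(FPKM + 1) (0.60). CANX was at 0.24 (SE 0.05). Together they summed to 1716 and 1635 CPM with DMSO and to 2093 and 2158 CPM with CBL0137, and the groups did not overlap.

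Of the genes of disulfide bond formation 1 rose and 4 were not called, while 18.2% of all tested genes were called higher and 15.1% lower. The isomerases form and reshuffle disulfide bonds, and ERO1 oxidases pass the electrons on to oxygen. ERO1B (ENSG00000086619, chromosome 1, 236377981 to 236445319, minus strand), one of the oxidases, stood at 25.7 and 23.0 CPM with DMSO and 49.2 and 45.8 with CBL0137, a 1.95-fold rise (log2 fold change 0.97, SE 0.08, edgeR adjusted p = 2.1e-13). Its libraries did not overlap, and it kept its call at the 1.5-fold limit under all 13 alternatives. None of the isomerase genes was called in this fit. PDIA6 was at -0.28 (SE 0.05), P4HB, the classical isomerase, at -0.04 (SE 0.05), PDIA4 at 0.10 (SE 0.06) and PDIA3, the partner of calnexin and calreticulin, at 0.16 (SE 0.05). Their summed level with ERO1B was 1231 and 1122 CPM with DMSO and 1186 and 1196 with CBL0137, so the sums overlapped.

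ERAD held the largest differences in both directions. A misfolded glycoprotein is trimmed by EDEM mannosidases, recognised by the lectins OS9 or ERLEC1, brought by SEL1L to the membrane ubiquitin ligase HRD1 (encoded by SYVN1), and pulled out by the ATPase VCP, with HERPUD1 and the derlins in the same complex. Of 12 ERAD genes 11 were tested, of which 2 fell, 1 rose and 8 were not called. The share lower was 18.2%, near the 15.1% of all tested genes, of which 18.2% were called higher. HERPUD1 (ENSG00000051108, chromosome 16, 56966054 to 56978776, plus strand) stood at 99.4 and 78.3 CPM with DMSO and 34.8 and 32.1 with CBL0137, 2.66-fold lower (log2 fold change -1.41, SE 0.08, edgeR adjusted p = 6.0e-19). The gap between the groups exceeded that between the vehicle libraries.

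SEL1L (ENSG00000071537, chromosome 14, 81937891 to 82000197, minus strand), the scaffold of the ligase, stood at 363 and 330 and then 183 and 179 CPM, 1.91-fold lower (-0.94, SE 0.05, edgeR adjusted p = 1.1e-18). OS9 (ENSG00000135506, chromosome 12, 58087624 to 58122125, plus strand) stood at 111 and 104 and then 258 and 240 CPM, 2.32-fold higher (1.21, SE 0.06, edgeR adjusted p = 7.3e-22). The lectin and the scaffold it binds thus changed in opposite directions. Their FPKM ratio within a library, OS9 to SEL1L, was 1.34 and 1.13 with DMSO and 4.75 and 4.49 with CBL0137.

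SYVN1 was at 43.9 and 42.7 and then 52.6 and 55.01 CPM (log2 fold change 0.31, SE 0.07, under the fold limit). Its FPKM ratio to SEL1L went from 0.463 and 0.483 to 1.11 and 1.15. ERLEC1, the other lectin, was at 42.3 and 37.9 and then 43.97 and 45.7 CPM (0.16, SE 0.08, edgeR adjusted p = 0.067), and the ratio of OS9 to ERLEC1 was 3.75 and 3.32 and then 6.37 and 5.80. Each ratio of OS9 to ERLEC1 with CBL0137 was above both with DMSO.

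The mannosidase genes were not called: EDEM1 was at -0.44 (SE 0.08), EDEM2 at -0.14 (SE 0.10) and EDEM3 at 0.10 (SE 0.05). DERL1 (0.17, SE 0.06), DERL2 (-0.12, SE 0.09) and VCP (0.25, SE 0.05) were not called either. DERL3, a derlin of professional secretory cells, had 0 and 6 reads with DMSO and 3 and 1 with CBL0137 and was not tested. The summed ERAD level was 1264 and 1193 CPM with DMSO and 1238 and 1215 with CBL0137, so the treated sums lay within the range of the vehicle libraries.

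Of the 32 genes 20 have an exon that overlaps an exon of another annotated gene, 19 of them on the opposite strand, and the strand setting of the counting is not given. HERPUD1, SEL1L, HSPA5 and DNAJC3 overlap none. OS9 overlaps AGAP2 on the opposite strand, which itself was called higher, from 2.01 and 2.15 CPM to 9.01 and 6.46, a level far under that of OS9. The neighbours of ERN1, HYOU1 and ERO1B that were counted had at most 4 reads in any library, and another gene that overlaps ERN1 had no entry. Ambiguous reads, 8.75% to 9.34% of counted reads, were given to no gene. A low neighbour count therefore does not show that a member lost no reads. DERL3 overlaps SMARCB1, at 134.5 to 222 CPM, so its few reads are uncertain.

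The vehicle libraries differed from each other in these genes. DMSO replicate 1 lay above DMSO replicate 2 in 27 of 31 genes (87.1%), against 50.3% of all tested genes. With CBL0137 replicate 1 was the higher in 17 of 31. In the BiP system replicate 1 was higher in 9 of 9 genes, with a median difference of 0.29 on the log2 scale, and the largest differences were those of SDF2L1 (0.71), HSPA5 (0.57) and MANF (0.45). The median absolute difference between the vehicle libraries was 0.14 for the 31 genes and 0.12 for all tested genes, which include many of low count. Summed over the BiP system, the level was 2056 and 1572 CPM with DMSO and 1604 and 1680 with CBL0137, so both treated libraries lay between the vehicle libraries.

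Leaving out DMSO replicate 1 brought HSPA5 to -0.42 and DNAJC3 to -0.54 on the log2 scale and ended both calls, which left 4 members called lower. Leaving out DMSO replicate 2 brought HSPA5 to -0.99 and SDF2L1 to -0.65, and 7 members were called lower. HERPUD1 ran from -1.25 to -1.59 over the same comparisons and SEL1L from -0.88 to -1.02. What set the vehicle libraries apart was not tested.

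**Figure D4:**
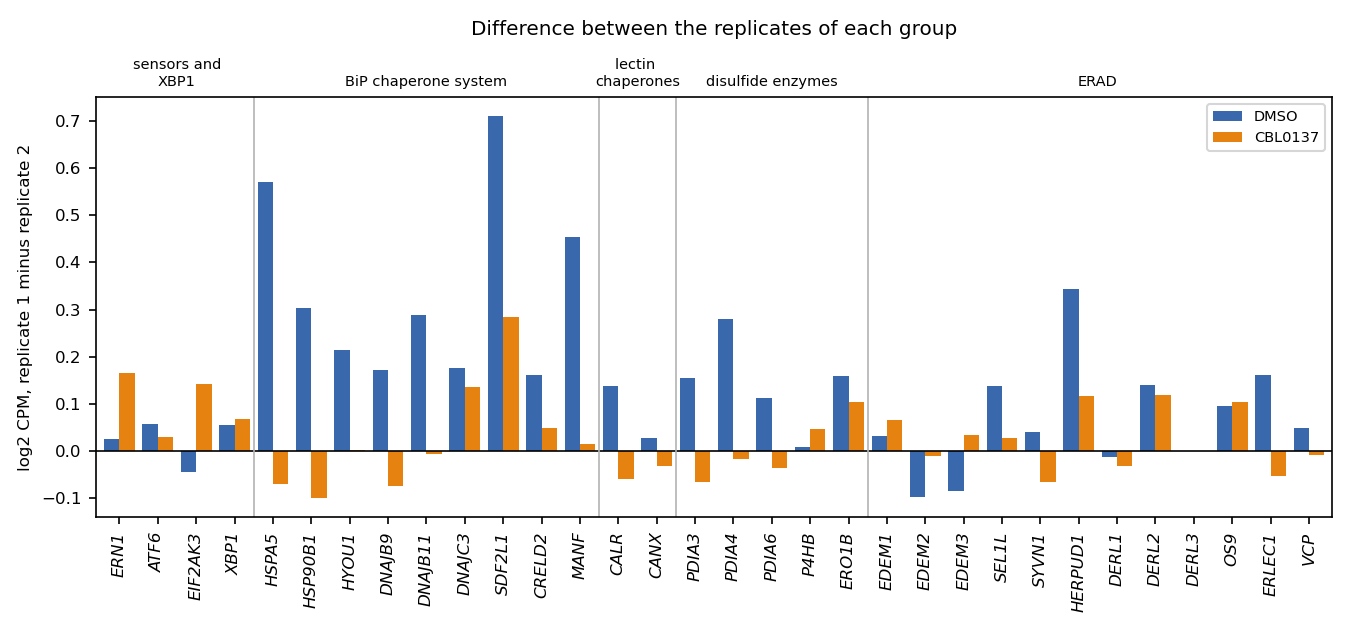
Difference in log2 CPM between replicate 1 and replicate 2 within DMSO (blue) and within CBL0137 (orange) for the 31 tested genes, by role. The DMSO bars lie above 0 in 27 genes and are tallest for SDF2L1, HSPA5 and MANF, while the CBL0137 bars fall on both sides.

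Other genes of the ER were looked at in 5 lists with 113 genes, of which 111 were tested. In all, 15 fell, 10 rose and 86 were not called, with a median log2 fold change of -0.02, and 9 were called lower with library size alone. The share lower was 13.5%, near the 15.1% of all tested genes. Of all tested genes 18.2% were called higher. The list of signalling genes of the unfolded protein response (UPR) held the largest falls, with 6 of 18 lower (33.3%) and 1 higher. It was not limited to targets of the sensors. CHAC1, a glutathione-degrading enzyme induced through ATF4, fell by 2.71 (SE 0.07), and TRIB3, a pseudokinase of the same axis, stood at 277 ± 13.3 and 68.4 ± 2.70 CPM (SD, n = 2; -2.02, SE 0.06). ATF4, PPP1R15A, ATF3 and NFYA, a subunit of the factor that binds the CCAAT half-site, were also called lower; these 4 were named after their values were seen, as was CREB3L1 (0.74), which rose.

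Folding factors outside the 32 genes had 5 of 30 lower (16.7%, near the 15.1% of all tested genes) and 4 higher (against 18.2% of all tested genes). SEC63, a J-domain protein of the translocon, stood at 423 ± 6.94 and 254 ± 3.38 CPM (SD, n = 2; log2 fold change -0.73, SE 0.05) and lost its call with library size alone (-0.57) and with log2(FPKM + 1) (-0.58). FKBP9, a prolyl isomerase, rose from 58.4 ± 3.34 to 113 ± 2.68 CPM (0.95, SE 0.06). Other ERAD genes had 2 of 24 lower (8.33%), and 2 higher, against the same background. RHBDD1, a rhomboid protease of ERAD, fell from 60.8 ± 6.99 to 20.6 ± 2.64 CPM (-1.56, SE 0.09), and UBE2J1, a ubiquitin-conjugating enzyme that works with HRD1, from 50.5 ± 0.517 to 26.8 ± 1.94 CPM (-0.91, SE 0.08).

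The translocon and N-glycosylation genes had 2 of 24 lower (8.33%, against 15.1% of all tested genes) and 1 higher (against 18.2%). SRPRB, a subunit of the signal recognition particle receptor, had a log2 fold change of -0.95 (SE 0.07). STT3B, a catalytic subunit of oligosaccharyltransferase, was at -0.72 on that scale (SE 0.06), and at -0.56 and not called with library size alone. Of 15 ER-to-Golgi genes 2 rose and 13 were not called, against the same shares of all tested genes. KDELR1, the receptor that returns escaped lumenal chaperones, rose from 122 ± 0.232 to 203 ± 10.9 CPM (0.74, SE 0.06), and the cargo lectin LMAN2 was at 0.56 (SE 0.05), just under the fold limit, and was called with library size alone (0.72). Among the 15, the other gene that rose was SEC24C (0.69), named after its value was seen.

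**Figure D5:**
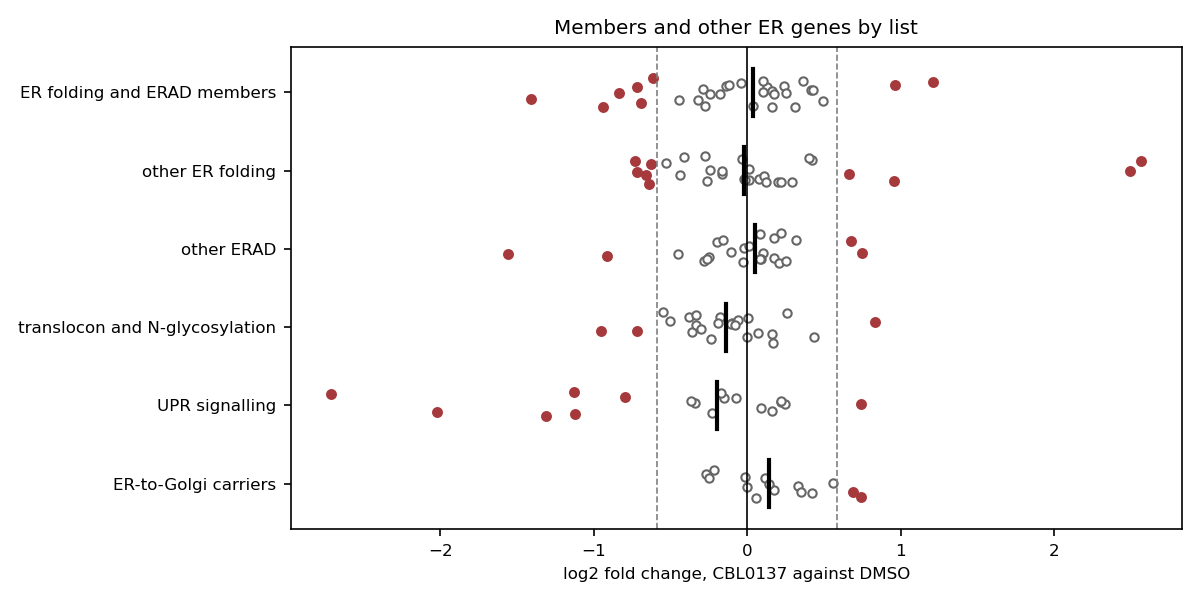
Log2 fold change of CBL0137 against DMSO for the 31 tested members and for the tested genes of 5 other ER lists; red points are called, open points are not, the black bar is the median of each list and dashed lines mark a fold of 1.5. The medians lie near 0, from -0.20 (UPR signalling) to 0.14 (ER-to-Golgi carriers), and the lowest value is that of CHAC1 in the signalling list.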

How the data were processed

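RNA-seq libraries of SKNMC cells with CBL0137 or DMSO (2 each) were grouped by sample title. The authors trimmed with Trim Galore, aligned to hg19 with HISAT2 and deposited raw read counts per gene from HTSeq 0.11.1, per the series' design text. The authors also deposited FPKM values, from reads, gene length and depth, which do not follow the deposited counts in every gene. The submitters' processing notes also name mm10, without its use. Annotation release and strand setting: not given in the sources used here. Of the table's entries 6 name no gene and stayed out. Reads in no annotated gene were 8.52% to 10.3% of counted reads.

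Counts were tested with the quasi-likelihood test of edgeR 4.0.16 in R 4.3.3 (TMM factors, filterByExpr, 17374 genes; common coefficient of variation 4.11%), after a check on simulated data. SE is the absolute log2 fold change over the square root of F. CPM uses TMM library sizes and shows shares of RNA, so less RNA per cell would not show. DESeq2 1.42.0 and limma 3.58.1 (on log2 FPKM) were alternatives. With 2 against 2, an exact permutation test of 1 value could not pass, so sums and ratios carry no p. Replicates of a group differed beyond sampling noise (chi-square per degree of freedom 2.95 and 2.68). Gene positions are from GENCODE 44 on GRCh37. PECAM1, a marker, was not matched. Members and lists were chosen with earlier results of these data known. Named were all members, those called and the sensors with each library's value, and the 2 genes of smallest p in each other list.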

Additional observations from a re-analysis of the deposited data

How the results depend on the processing

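At 19625517 to 21061892 reads in genes per library, 1 member, DERL3, was too low to test. The number of members called lower was 3 with library size alone, 2 with each of the 3 FPKM settings, 11 without a fold limit and 1 above a fold of 2, in place of 6. It ran from 4 to 7 with a library left out. Members called higher were 4, 11 and 1 with library size alone, no limit on fold and a limit of 2, in place of 2. Other ER genes called lower were 9, 43 and 6 in these settings, in place of 15, and those called higher were 33 and 2 in the latter pair, in place of 10. All genes called were 3436 with log2(FPKM + 1), 2272 without a filter on FPKM, 10722 without a fold limit and 3206 above a fold of 2, in place of 5798. The median of the members was 0.20 with library size alone, 0.14 with log2(FPKM + 1) and 0.15 with log2(FPKM + 0.1), in place of 0.04, and ran from -0.06 to 0.05 with a library left out. The fold limit admits more or fewer genes by construction, and library size alone shifts all genes; the cause of the FPKM differences was not tested. No called member changed sign. Same-numbered libraries of the groups had a correlation of deviations of 0.02, so no large effect shared by a number was seen over all genes. Whether same-numbered libraries were prepared as pairs is not stated, and the correlation cannot decide it. With the replicate block 5741 genes were called in all, 6 members lower and 2 higher.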
